A study of Mus musculus with 2 samples.

Results

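The let-7 genes that lie outside the clusters with miR-99/100 and miR-125 were described in mouse adrenal glands: Mirlet7a-1, Mirlet7b, Mirlet7c-2, Mirlet7d, Mirlet7f-1, Mirlet7f-2, Mirlet7g, Mirlet7i and Mir98. They were chosen by gene symbol in the GENCODE M21 annotation, by a rule that uses no measured value, and all 9 were found among the 2202 counted miRNA genes. The series is 1 group of 2 microRNA sequencing libraries from adrenal glands of male B6CASTF1/J mice, F1 hybrids of C57BL/6 and CAST/EiJ, 10 days old and with no treatment given in the labels. The labels number the libraries as biological replicates 1 and 2, name a different male for each under 1 donor record, and do not say whether glands were pooled. There is no second condition, so levels are described, and the only contrast is replicate 2 against replicate 1.

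MicroRNAs (miRNAs) are short RNAs cut from hairpin precursors. Each hairpin can give a mature product from its 5′ arm (5p) and one from its 3′ arm (3p), and bases 2 to 8 of a mature miRNA, the seed, do most of the pairing with target mRNAs. The let-7 family is named after a timing gene of worms. In mammals it is known to accumulate as tissues differentiate and to lower genes of growth such as Hmga2, Igf2bp1 and the Ras genes. The RNA-binding proteins Lin28a and Lin28b block the maturation of let-7 precursors in embryonic and proliferating cells. The adrenal gland is a steroid-producing cortex around a medulla of chromaffin cells.

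The 5p sequences are shown first because they define the family and decide which reads can be told apart. They come from RefSeq (GRCm38.p6, the build called mm10), where all 9 genes matched. They are written 5′ to 3′ with the seed in capitals.
Mirlet7a-1: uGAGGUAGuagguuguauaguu
Mirlet7b: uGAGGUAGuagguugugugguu
Mirlet7c-2: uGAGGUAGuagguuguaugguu
Mirlet7d: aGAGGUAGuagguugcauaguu
Mirlet7f-1: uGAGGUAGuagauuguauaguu
Mirlet7f-2: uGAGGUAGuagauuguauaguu
Mirlet7g: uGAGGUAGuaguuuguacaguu
Mirlet7i: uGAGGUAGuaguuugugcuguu
Mir98: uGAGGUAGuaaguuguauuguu

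The 9 genes have 1 seed, which 13 of 1738 RefSeq mature entries hold. Counted from 1 at the 5′ end, let-7c differs from let-7a by A19G, let-7b by A17G and A19G, and let-7f by G12A. Mir98 differs from let-7a by G11A and A19U, let-7g by G12U and U18C, and let-7d by U1A and U16C. The most distant from let-7a is let-7i, with G12U, A17G, U18C and A19U. Mirlet7f-1 and Mirlet7f-2 give the same 5p sequence.

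On the gene's own strand the 9 genes together held 19.2% of the assigned counts in replicate 1 (95% Wilson interval 19.18 to 19.27) and 19.9% in replicate 2 (19.85 to 19.94). The mean was 19.6% ± 0.47 (SD, n = 2). Each interval covers counting error within 1 library only. The files record no molecular identifiers, so copies made by amplification cannot be told from separate molecules. Nearly all of these assigned counts came from 4 genes: Mirlet7g, Mirlet7b, Mirlet7i and Mirlet7d held 18.8% ± 0.51, and the other 5 the remainder. Reads with more than 1 mapping place are not among assigned counts. Of the other 5, Mirlet7a-1, Mirlet7c-2, Mirlet7f-1 and Mirlet7f-2 have a mature arm with an exact copy in another counted gene, leaving their levels uncertain. Levels are given in CPM, the counts-per-million scale over own-strand assigned reads. Each of the 9 reached 1 CPM in replicates 1 and 2, as did 441 of the 2202 genes. A share of reads from a whole gland cannot tell fewer cells of a type from less RNA per cell.

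Mirlet7g, which gives let-7g, had the most assigned counts of the 9 in each library, with reads of more than 1 mapping place left out. It had 222693 counts, or 78310 CPM, in replicate 1 and 202793 counts, or 65841 CPM, in replicate 2 (72075 ± 8817 CPM, SD, n = 2). By own-strand counts it held rank 3 among all miRNA genes in each library, below Mir378a and Mir126a in replicate 1 and below Mir122 and Mir378a in replicate 2. In counts taken without strand it held rank 1 in replicate 1 and rank 2 in replicate 2. Without strand, 595217 reads in replicate 1 and 513655 in replicate 2 were set aside as ambiguous, against 0 on the own strand. Their part in these ranks was not tested.

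Mirlet7b had 38452 CPM in replicate 1 and 58288 CPM in replicate 2 (48370 ± 14026 CPM). Mirlet7i had 47160 and 43730 CPM (45445 ± 2426 CPM). The ranges of these genes overlap and their order turns: Mirlet7i was above Mirlet7b in replicate 1 and below it in replicate 2. Mirlet7g stayed above both in each library, by 2.04 times over Mirlet7b in replicate 1 and 1.13 times in replicate 2. Mirlet7d followed at 19990 and 23241 CPM (21615 ± 2299 CPM). By own-strand counts it was the 17th highest gene in replicate 1 and the 11th in replicate 2.

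The next genes were lower by several fold in assigned counts. Mir98, a let-7 by sequence that carries an older number, had 4497 CPM in replicate 1 and 3543 CPM in replicate 2 (4020 ± 674 CPM). Mirlet7f-2 had 2889 and 2913 CPM (2901 ± 16.8 CPM) and ranked 51 in each library. In CPM its libraries differed by an SD of 0.580% of the mean, the smallest of the 9 on this scale, against 30.6% for Mirlet7c-2 at the other end. With TMM scaling Mirlet7f-1 differed least, and with Mir122 left out of the totals Mirlet7i did.

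Mirlet7c-2, Mirlet7a-1 and Mirlet7f-1 had the fewest assigned counts. Each has a mature arm copied exactly in another counted gene, so these levels are uncertain. Mirlet7c-2 had 613 and 951 CPM (782 ± 239 CPM), Mirlet7a-1 216 and 331 CPM (274 ± 81.7 CPM) and Mirlet7f-1 113 and 117 CPM (115 ± 2.81 CPM). Mirlet7f-1 rests on 322 and 361 counts. Levels of neighbours in the order did not overlap except for Mirlet7b with Mirlet7i. With 2 values a gene, no exact permutation test between genes can go below a two-sided p of 0.333.

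A miRNA read covers a whole mature product, so CPM does not scale with the length of the hairpin. Per 100 bases of the annotated gene the order of the 9 genes was the same. On that scale Mirlet7g had 81904 CPM per 100 bases, Mir98 3723, Mirlet7f-2 3495 and Mirlet7f-1 129. The ratio of mean levels of Mir98 to Mirlet7f-2 was 1.39 in CPM and 1.07 per length. Per length their order turned between the libraries, with Mir98 at 1.20 times Mirlet7f-2 in replicate 1 and 0.935 times in replicate 2.

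**Figure D1:**
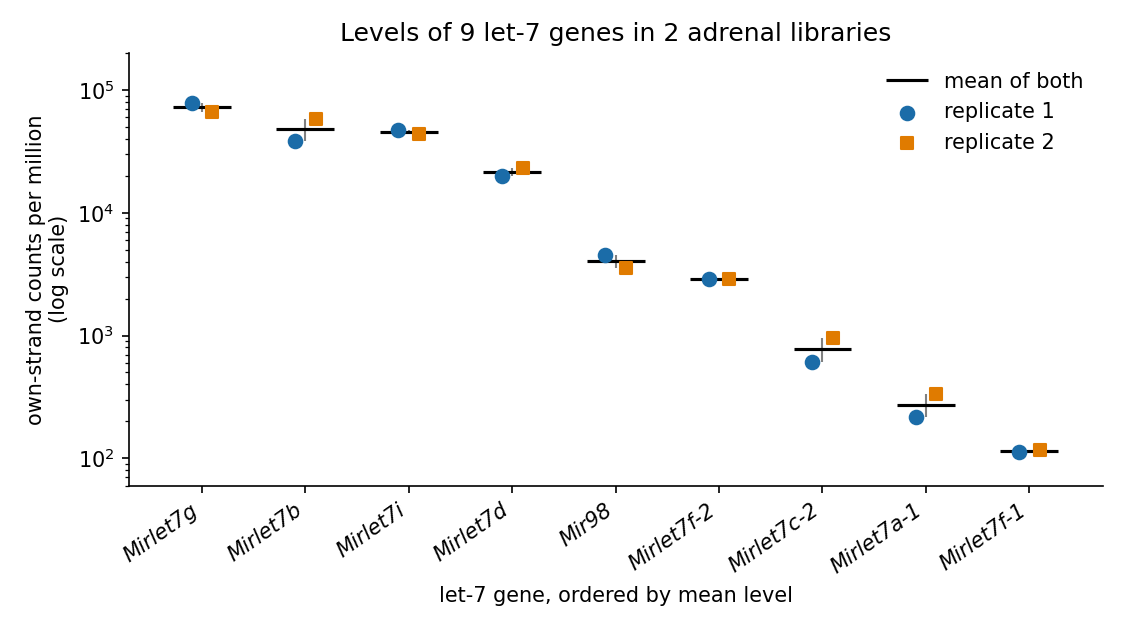
Own-strand CPM (counts-per-million, log axis) of the 9 let-7 genes in replicate 1 (circles) and replicate 2 (squares), with the mean as a bar and a grey line between the libraries. Levels run from 72075 CPM for Mirlet7g to 115 CPM for Mirlet7f-1, and Mirlet7b and Mirlet7i are the neighbours whose values overlap.

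In the ranking of all miRNA genes by mean own-strand CPM, Mirlet7g (rank 2) stood between Mir378a and Mir126a. Mirlet7b (rank 5) and Mirlet7i (rank 6) stood between Mir122 at 63637 CPM and Mir375, the endocrine miRNA, at 34264 CPM. Mirlet7d (rank 14) stood between Mir23b and Mir335. Mir98 (rank 44) lay between Mir433 and Mir431, and Mirlet7f-2 (rank 51) between Mir28a and Mir107. Mirlet7c-2 (rank 106) lay between Mir132 and Mir27a, Mirlet7a-1 (rank 150) between Mir210 and Mir500, and Mirlet7f-1 (rank 197) between Mir539 and Mir679. With 2 libraries, likeness of pattern across samples cannot be measured, so these are neighbours in level only.

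By position the 9 genes form 3 clusters and 2 single genes, at 5 loci of mm10. All hosts lie on the same strand as the miRNA. Of the 9, 3 lie in introns of a protein-coding gene and 6 overlap an exon of a noncoding host in at least 1 transcript. No miR-99, miR-100 or miR-125 gene lies within 10000 bases of any of them. The libraries hold short fragments, so the host transcripts themselves were not measured.

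The chromosome 13 cluster lies on the minus strand in exon 2 of the long noncoding RNA 6720427I07Rik. In the direction of transcription it holds Mirlet7a-1 (ENSMUSG00000065421.3, 48538179 to 48538272), Mirlet7f-1 (ENSMUSG00000105621.1, 48537829 to 48537917) and Mirlet7d (ENSMUSG00000065453.1, 48536012 to 48536114). Mirlet7a-1 and Mirlet7f-1 are 261 bases apart, and 1714 bases separate Mirlet7f-1 from Mirlet7d. The assigned levels of these neighbours were far apart. Mirlet7a-1 and Mirlet7f-1 have mature arms copied exactly in other counted genes, and Mirlet7d has none. Reads with more than 1 mapping place are set aside, and their part in these ratios was not tested. Mirlet7d had 92.6 times the counts of Mirlet7a-1 in replicate 1 and 70.1 times in replicate 2, and 177 and 198 times those of Mirlet7f-1. Divided by gene length, the ratios of Mirlet7d to Mirlet7a-1 were 84.5 and 64.0.

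On chromosome 15, plus strand, Mirlet7c-2 (ENSMUSG00000065608.1, 85706603 to 85706697) and Mirlet7b (ENSMUSG00000065564.1, 85707319 to 85707403) lie 621 bases apart in exons of the noncoding gene Lncppara. Mirlet7b had 62.8 times the counts of Mirlet7c-2 in replicate 1 and 61.3 times in replicate 2. The ratio of these neighbours was thus nearly constant (62.0 ± 1.03, SD, n = 2), while the level of each was higher in replicate 2 by over 1.5 times. Per length the ratios were 70.2 and 68.5. Both mature arms of Mirlet7c-2 are copied exactly in other counted genes, and no arm of Mirlet7b is. The part of reads set aside for this in the ratios was not tested.

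On the X chromosome, plus strand, Mirlet7f-2 (ENSMUSG00000065602.1, 151912346 to 151912428) and Mir98 (ENSMUSG00000065536.2, 151913214 to 151913321) lie 785 bases apart in introns of Huwe1, which encodes a ubiquitin ligase. Mir98 had 1.56 times the counts of Mirlet7f-2 in replicate 1 and 1.22 times in replicate 2. This was the only cluster in which neighbours were within 2 times of each other, apart from Mirlet7a-1 over Mirlet7f-1 in replicate 1 (1.91 times, and 2.83 times in replicate 2). The 5p arm of Mirlet7f-2 is copied exactly in Mirlet7f-1, and no arm of Mir98 is copied.

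The single genes were among the 3 highest in assigned counts. Mirlet7g (ENSMUSG00000065440.1) lies on chromosome 9, plus strand, from 106178840 to 106178927, in an intron of Wdr82 in all 5 transcripts that span it. Wdr82 encodes a subunit of a histone methyltransferase complex. Mirlet7i (ENSMUSG00000065406.3) lies on chromosome 10, minus strand, from 122985640 to 122985724. There it overlaps D630033A02Rik, annotated as a transcribed processed pseudogene, in an exon of 1 of its 2 transcripts.

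**Figure D2:**
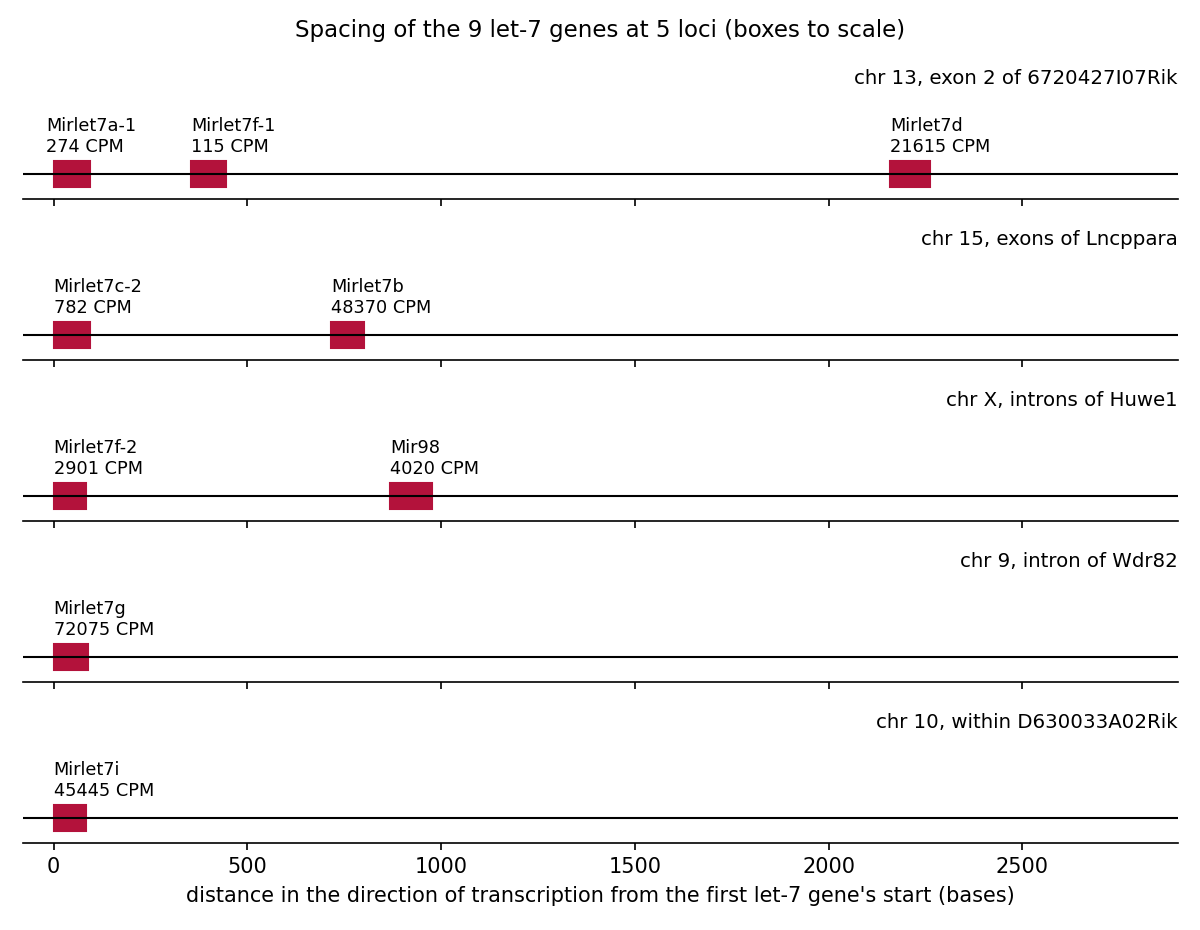
Positions of the 9 let-7 genes at 5 loci, drawn to scale as the distance in bases from the start of the first gene, in the direction of transcription; boxes are annotated genes, labelled with mean own-strand CPM. Within the chromosome 13 and 15 clusters the last gene is the highest (Mirlet7d at 21615 CPM, Mirlet7b at 48370 CPM), with neighbours at 782 CPM or less. These neighbours have mature arms copied exactly in other counted genes, and reads with more than 1 mapping place are not in the levels.

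Mirlet7f-2, Mirlet7c-2, Mirlet7a-1 and Mirlet7f-1, the lowest of the 9 in assigned counts, each have a mature arm copied exactly in another counted gene. Mir98, next above them at 1.39 times Mirlet7f-2 in mean CPM, has none. The files set aside reads with more than 1 mapping place, and these made up 27.5% of all reads in replicate 1 and 25.9% in replicate 2. Each annotated mature arm was therefore searched for exact copies in all other counted genes. Neither arm of Mirlet7g, Mirlet7b, Mirlet7i, Mirlet7d or Mir98 had a copy, and these genes had 4020 to 72075 CPM. The 5p arm of Mirlet7f-1 and Mirlet7f-2 is shared between them while their 3p arms are their own, and they had 115 and 2901 CPM. Both arms of Mirlet7a-1 and Mirlet7c-2 have a copy: their 5p sequences are also in Mirlet7a-2 and Mirlet7c-1, and their 3p sequences are the same as each other. They had 274 and 782 CPM.

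The 3p arms of these 4 genes show this, with the seed in capitals.
Mirlet7a-1 3p: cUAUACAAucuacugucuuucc
Mirlet7c-2 3p: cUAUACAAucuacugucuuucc
Mirlet7f-1 3p: cUAUACAAucuauugccuuccc
Mirlet7f-2 3p: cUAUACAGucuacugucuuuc

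In mean CPM every gene with no copied arm was thus above every gene with one. Per length Mir98 was at 0.935 times Mirlet7f-2 in replicate 2. Among the other genes with a RefSeq mature sequence, 161 of 902 with no copied arm (17.8%) reached 100 CPM, as did 17 of 59 with some copied arms (28.8%) and 0 of 48 with every arm copied. The highest of those 48 had 56.4 CPM, below Mirlet7a-1 and Mirlet7c-2. How many of the reads that map to several places came from these let-7 genes was not tested, so the levels of Mirlet7a-1, Mirlet7c-2, Mirlet7f-1 and Mirlet7f-2 are uncertain. The search covered counted miRNA genes, not the whole genome.

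**Figure D3:**
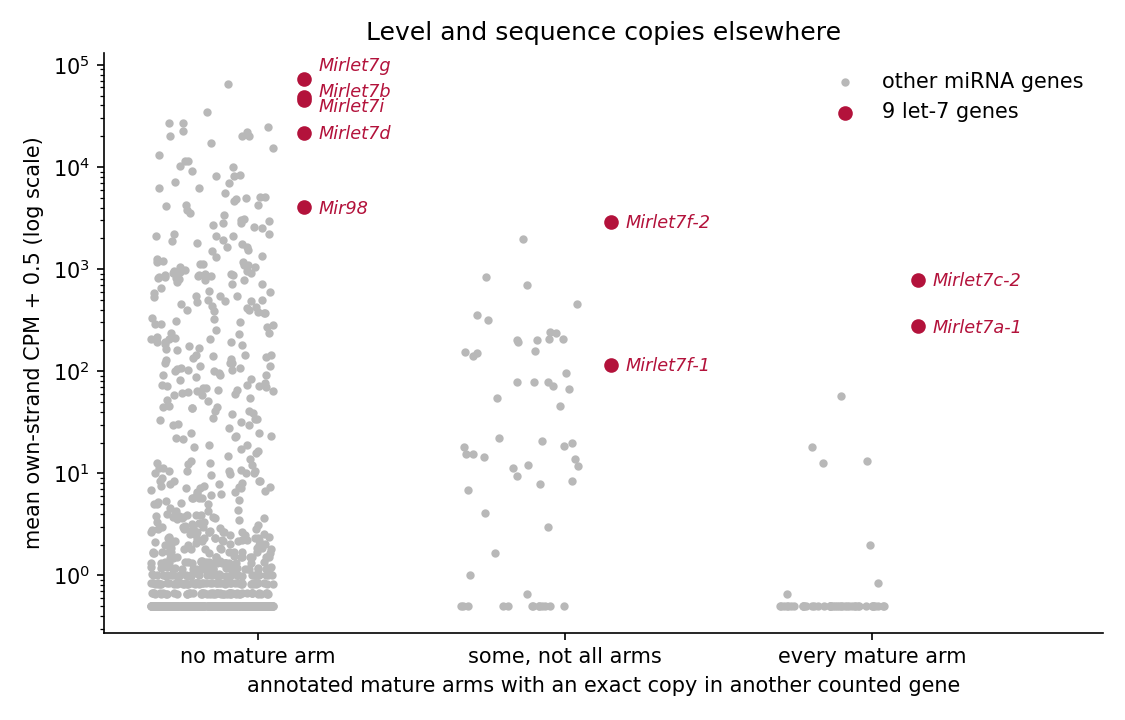
Mean own-strand CPM + 0.5 (log axis) of miRNA genes by whether none, some or all of their annotated mature arms have an exact copy in another counted gene; grey points are other genes, spread sideways for display, and red points the 9 let-7 genes. The 5 let-7 genes with no copied arm lie at 4020 CPM and above, and Mirlet7c-2 and Mirlet7a-1 lie above the 56.4 CPM of the highest other gene with every arm copied.

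Near copies are common as well. The let-7b 5p sequence is 1 mismatch from that of Mirlet7c-1 and Mirlet7c-2 (G17A, written from let-7b), and the let-7i 5p sequence is 1 mismatch from a stretch of Mir7j (G8U, written from let-7i). Mir7j, the symbol under which RefSeq lists let-7j, had 64.4 and 52.6 CPM. The 5p arms of Mirlet7g, Mirlet7d and Mir98 are 2 mismatches from their nearest counted gene. Of the 3p arms, that of Mirlet7f-2 is 1 mismatch from Mirlet7a-1, and those of Mirlet7b and Mirlet7f-1 are 2 from each other. Those of Mirlet7d, Mirlet7g and Mir98 are 4 mismatches from the nearest other gene and that of Mirlet7i is 5. How many mismatches the authors' alignment allowed is not given in the sources used here.

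In raw counts, strand mattered for 1 of the 9 genes, apart from 11 counts of Mirlet7b. In CPM, where the total changes too, 6 levels moved by more than the SD between libraries. Mirlet7f-1 is overlapped on the opposite strand by the miRNA gene Gm24111 and is listed at 0 without strand, against 322 and 361 counts on its own strand. Gm24111 had 0 own-strand counts in both libraries. At a limit of 3 counts, these own-strand zeros leave room for 1.05 CPM in the first library and 0.974 CPM in the other, for counting error only. Of the other 8 genes, 7 had the same count in both columns and Mirlet7b differed by 11 in each library.

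The precursors of the family differ in a motif known from Lin28. The zinc knuckles of Lin28 proteins are known to bind GGAG in the terminal loop region of let-7 precursors. The RNA strand between the mature arms was searched for GGAG in all RefSeq hairpins with both arms annotated, and 52 of 644 (8.07%) held it. Of the 9 let-7 genes, 6 did: Mirlet7a-1, Mirlet7d, Mirlet7f-1, Mirlet7f-2, Mirlet7g and Mirlet7i. In these the motif ended 3 or 4 bases before the 3p arm. Mirlet7b, Mirlet7c-2 and Mir98 did not hold it in this window. Genes with the motif ranged from 115 to 72075 CPM and those without from 782 to 48370 CPM, so the groups overlap.

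As examples, the hairpins of Mirlet7g and Mirlet7d with the motif in capitals, and that of Mirlet7b without it, read as follows.
Mirlet7g hairpin: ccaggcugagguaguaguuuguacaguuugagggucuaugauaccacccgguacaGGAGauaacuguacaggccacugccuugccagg
Mirlet7d hairpin: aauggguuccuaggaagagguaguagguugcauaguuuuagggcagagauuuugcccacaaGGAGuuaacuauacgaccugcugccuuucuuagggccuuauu
Mirlet7b hairpin: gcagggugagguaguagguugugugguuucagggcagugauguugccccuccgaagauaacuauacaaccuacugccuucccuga

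The hairpins were 83 to 108 bases long, with 26 to 36 bases between the arms. Their folding energies, predicted with RNAfold, lay between -48.9 and -39 kcal/mol, with a median of -43.1 kcal/mol against -32 kcal/mol over all 1005 RefSeq hairpins. The median length of all hairpins was 79 bases, shorter than any of the 9, and the part of length in the energies was not tested. Their median GC content was 44.7%, against 51.7% over all hairpins.

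The other let-7 genes give the family's background. Mirlet7e, from the cluster with Mir99b and Mir125a, had 7354 CPM in replicate 1 and 11046 CPM in replicate 2, between Mirlet7d and Mir98. Without strand Mirlet7e is listed at 0. Mirlet7c-1 had 415 and 488 CPM and Mirlet7a-2 139 and 149 CPM. The 9 genes held 95.3% ± 1.13 (SD, n = 2) of the assigned counts of these 12 let-7 genes, a total without Mir7j and Mir7k. The 5p sequences of Mirlet7c-1 and Mirlet7a-2 are copied exactly in Mirlet7c-2 and Mirlet7a-1. Reads with more than 1 mapping place are not in these levels or this share, and their part was not tested. Mir1961 and Mir7k (let-7k in RefSeq), which RefSeq lists with the same seed, are at 0 in both libraries. Mir202, a relative with another seed, had 51.7 and 39.0 CPM.

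Between the libraries the summed share of the 9 genes moved little, but the genes in it moved in both directions. Mirlet7b rose from 20.0% to 29.3% of the counts of the 9 genes, and Mirlet7g fell from 40.7% to 33.1%. Mirlet7i went from 24.5% to 22.0% and Mirlet7d from 10.4% to 11.7%. Differences were tested with an exact two-sided binomial test over all 444 genes with at least 10 counts, with Benjamini-Hochberg adjustment. The test sets these 2 libraries against counting error only, so it says nothing of conditions.

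By this test 7 of the 9 genes differed, against a background of 59% of the 444 genes tested. Among the 285 genes with at least 100 counts the share called was 80.4%, so the count is near what other well-covered genes show. Higher in replicate 2 were 4 of the 9, against 28.6% of all tested genes: Mirlet7c-2 (0.63 on the log2 scale, binomial adjusted p = 2.2e-48), Mirlet7a-1 (0.62, binomial adjusted p = 7.0e-17), Mirlet7b (0.60) and Mirlet7d (0.22). Lower in replicate 2 were 3 of the 9, against 30.4%: Mir98 (-0.34), Mirlet7g (-0.25) and Mirlet7i (-0.11). With Mir122 left out of the totals Mirlet7i had a log2 ratio of -0.0035 and was no longer called (binomial adjusted p = 0.625). Mirlet7f-1 (0.05) and Mirlet7f-2 (0.01) did not pass, and their signs turned with TMM scaling, to -0.015 and -0.053. Mirlet7f-2 passed as lower in replicate 2 under that scaling (binomial adjusted p = 0.028), and as higher with Mir122 left out (0.12, binomial adjusted p = 2.8e-07).

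Neighbours in 1 cluster can be read side by side. The chromosome 15 genes had log2 ratios of 0.63 and 0.60, and the chromosome 13 genes 0.62, 0.05 and 0.22. On the X chromosome Mir98 had -0.34 and Mirlet7f-2 0.01. Summed by cluster, the chromosome 15 genes held 3.91% of assigned counts in replicate 1 and 5.92% in replicate 2, and the chromosome 13 genes 2.03% and 2.37%. The X genes held 0.739% and 0.646%.

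None of the 9 genes differed by 2-fold or more between the libraries, against 22.3% of all tested genes. Among genes averaging 100 counts or more, 83.3% were inside that limit. Their median absolute log2 ratio was 0.25, against 0.56 over all tested genes and 0.46 over those averaging 100 counts or more. A negative binomial exact test in edgeR was also run, with a biological coefficient of variation of 0.393 estimated from these same libraries. The differences under test thus set the spread, so a gene with a difference of usual size was unlikely to pass. There 0 of the 9 genes passed at an adjusted p under 0.05, and 0 at an unadjusted p under 0.05. Over all genes it called 2 (0.45%), and 24 at an unadjusted p under 0.05.

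**Figure D4:**
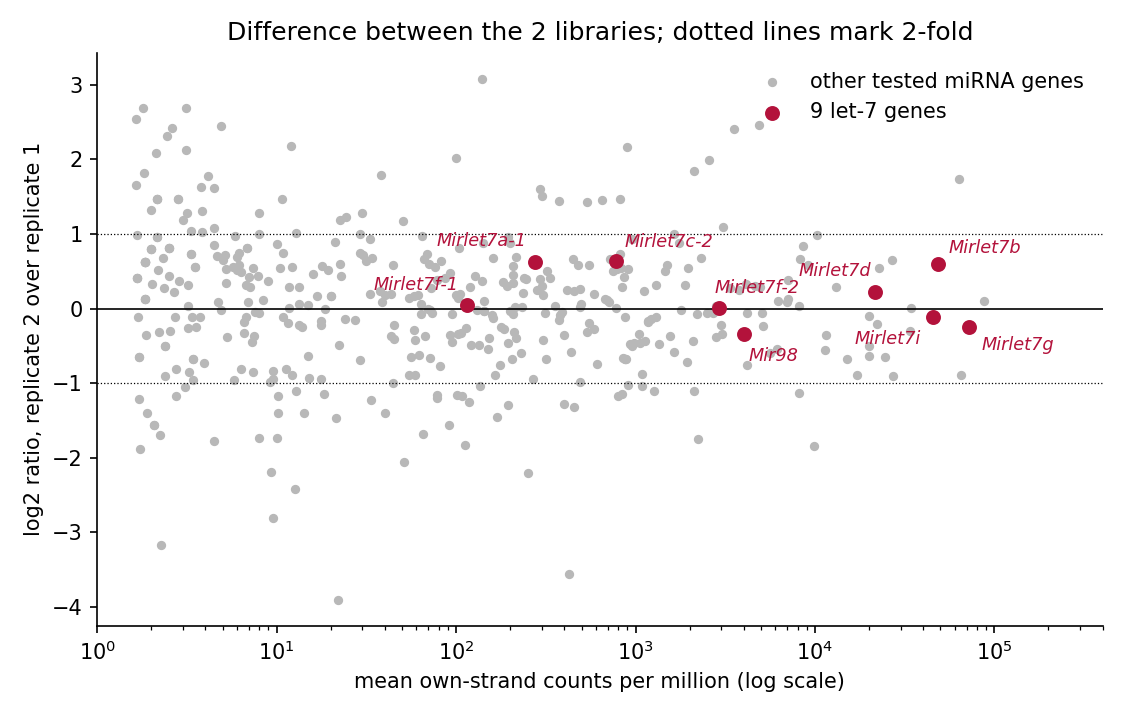
Log2 ratio of replicate 2 over replicate 1 against mean own-strand CPM (log axis) for the 444 tested miRNA genes, with the 9 let-7 genes in red and dotted lines at 2-fold. The let-7 genes lie between -0.34 (Mir98) and 0.63 (Mirlet7c-2).

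Markers of other tissues moved between the same libraries. Mir122, the hepatocyte miRNA, was 3.33 times higher in replicate 2, and the summed level of 5 striated muscle genes, 3 of them at 1 CPM or more in both libraries, went from 925 to 3330 CPM. Mir126a, of endothelium, went from 84263 to 45250 CPM and 3 red cell genes from 720 to 322 CPM. The sum of 4 neuroendocrine genes was 39914 and 37795 CPM, of 3 smooth muscle and fibroblast genes 40274 and 34044 CPM, of 3 leukocyte genes 826 and 1294 CPM and of 5 epithelial genes 1271 and 1130 CPM. None of the listed markers was at 0 in both libraries. Their part in the differences of the let-7 genes was not tested. Assigned own-strand counts were 2843734 in replicate 1 and 3080062 in replicate 2.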

How the data were processed

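For each library the authors deposited a table of raw gene counts. Its build is mm10 and its annotation GENCODE M21, per the deposited file descriptions. Which aligner and counter were used is not given in the sources used here. From their values, the 3 columns were read as without strand, own strand and opposite strand. The own-strand column was the main one, and the 4 rows of unassigned reads stayed out of totals. CPM used all gene rows. Log2 ratios added 0.5 counts to each library. The binomial test, its minimum of 10 counts and its adjustment covered all genes, and it was tested on simulated data. Those data held counting error only, so they cannot show how the test behaves with spread between animals. An adjusted p too small for the computer's number format, as for Mirlet7g and Mirlet7b, is not printed. In the main binomial test the adjusted p was 3.2e-158 for Mirlet7d, 1.9e-84 for Mirlet7i and 3.5e-74 for Mir98. Named genes were the 9 let-7 genes, genes with their seed or on a list of relatives, miRNA genes within 10000 bases, hosts and neighbours in rank. Mir7j was named after its values were seen. Members, lists and tests were chosen with earlier results of these data known. Alternatives were other columns, totals, scalings, filters, pseudocounts, tests and single replicates. Tools were Python 3.11.15, scipy 1.17.1, R 4.3.3, edgeR 4.0.16, DESeq2 1.42.0 and RNAfold 2.7.2.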

Additional observations from a re-analysis of the deposited data

Results flagged for a closer look

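Reads that are not part of a gene's own-strand count lay above what a count of 0 allows. Reads that map to several places numbered 2065487 in replicate 1 and 2308583 in replicate 2, which is 3.78 and 3.77 times the own-strand counts of the 9 let-7 genes. Gm24111, the gene opposite Mirlet7f-1, had opposite-strand counts of 322 and 361, the same numbers as Mirlet7f-1 on its own strand. Gm24111 spans the whole of Mirlet7f-1, so these are the reads already counted for Mirlet7f-1 and no separate signal. Mirlet7b had an opposite-strand count of 11 in each library, 0.0101% and 0.0061% of its own-strand count, and it was the only 1 of the 9 genes with any.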

How the results depend on the processing

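The share of the 9 genes, 19.6%, was 24.1% in the column without strand, 11.3% with reads that map to several places in the total, and 20.9% with Mir122 left out of the total. The counts of the 9 genes were nearly the same without strand (546368 and 612444, against 546679 and 612794). The assigned total without strand was smaller, at 2248772 and 2566634 against 2843734 and 3080062. For the 11.3%, reads that map to several places were added to the total only. None was credited to the 9 genes, so a fall was fixed in advance. It was 19.2% to 19.9% with 1 replicate left out. The negative binomial test, its spread set by these same libraries, called 0 of the 9 genes and 2 of all genes, against 7 and 262. The sign turned for Mirlet7f-2 without strand (-0.064) and with TMM scaling (-0.053), and for Mirlet7f-1 with TMM scaling (-0.015). In the column without strand and with TMM scaling Mirlet7f-2 passed the binomial test, lower in replicate 2, and with Mir122 left out it passed as higher (0.12). The 7 called genes kept their sign in every alternative run, with Mirlet7i nearest to 0. The order of the 9 genes was the same per length. Levels moved by more than the SD between libraries for 6 genes without strand and for 3 with Mir122 left out. With reads that map to several places in the total all 9 did, where a fall was again fixed in advance. No paired analysis was possible because there is 1 group. Depth limits Mirlet7f-1 most, at 322 and 361 counts.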

Other observations

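Pairs of genes with the same 5p sequence can be told apart only by reads that run past it or come from the other arm. The 3p arms of Mirlet7a-1 and Mirlet7c-2 are the same as each other and also need 2 more bases. Those of Mirlet7a-2 and Mirlet7c-1 have no exact copy, so the genes of these pairs can draw counts from unlike reads. The 5p sequences are shown with the next 3 bases of the hairpin in capitals.
Mirlet7a-1: ugagguaguagguuguauaguuUUA
Mirlet7a-2: ugagguaguagguuguauaguuUAG
Mirlet7c-2: ugagguaguagguuguaugguuUUG
Mirlet7c-1: ugagguaguagguuguaugguuUAG
Mirlet7f-2: ugagguaguagauuguauaguuUUA
Mirlet7f-1: ugagguaguagauuguauaguuGUG

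The let-7a and let-7c pairs need 2 more bases before no other counted gene holds the sequence, and the let-7f pair needs 1. In each pair the gene with the longer run of U after the 5p sequence had more counts in both libraries. Mirlet7a-1 had 1.56 and 2.22 times the counts of Mirlet7a-2 in replicates 1 and 2, and Mirlet7c-2 had 1.48 and 1.95 times those of Mirlet7c-1. Mirlet7f-2 had 25.5 and 24.9 times those of Mirlet7f-1, and 27.4 and 26.6 times per length. These are 3 pairs noticed after the values were seen, the files do not split counts by arm, and the part of the next bases in the counts was not tested.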
